A study of Mus musculus with 6 samples.

Results

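The genes described here are 8 transcripts of the thick ascending limb and the distal tubule of the mouse kidney, namely Umod, Kcnj1, Casr, Bsnd, Pvalb, Trpm6, Calb1 and Trpv5. They were taken by gene name from the rows of the 6 per-library tables, in which 25805 genes are listed, and all 8 were found and had a mean normalized count high enough to be tested. RNA sequencing was done on kidney tissue of mice after ischaemia-reperfusion injury (IRI), in which the blood flow of the kidney is stopped and then restored. The libraries formed 2 groups of 3, kidneys labelled CXCR2 knockout with IRI (KO-labelled libraries) and kidneys labelled WT with IRI (wild-type libraries), so that both groups were injured. CXCR2 is a chemokine receptor of neutrophils and other cells. The labels give neither the strain, the age, the time after injury nor the kind of knockout allele, and no uninjured kidney was analysed here. Nor do they tie the libraries to separate animals, and the p-values therefore measure only how far these samples spread, which may be technical.

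The thick ascending limb takes up sodium, potassium and chloride through the cotransporter Slc12a1, returns potassium to the lumen through Kcnj1 and lets chloride leave through chloride channels that need the subunit Bsnd. The voltage this creates drives calcium and magnesium between the cells, a flow that the calcium-sensing receptor Casr restrains. The distal convoluted tubule takes up salt through Slc12a3 and magnesium through Trpm6, and the segments after it take up calcium through Trpv5 and carry it across the cell bound to Calb1.

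Promoter sequences are given for the gene with the highest level per length (Umod), the gene that varied most between libraries (Pvalb) and the gene whose groups did not overlap (Trpv5). Each runs 5′ to 3′ from 250 bases before to 50 bases after the gene's start in RefSeq (build GRCm38.p6). All 3 lie on the minus strand, Umod at chr7:119479213-119479512, Pvalb at chr15:78206351-78206650 and Trpv5 at chr6:41680674-41680973. Capitals mark the match to the TATA box TATAAA, in Trpv5.
Umod: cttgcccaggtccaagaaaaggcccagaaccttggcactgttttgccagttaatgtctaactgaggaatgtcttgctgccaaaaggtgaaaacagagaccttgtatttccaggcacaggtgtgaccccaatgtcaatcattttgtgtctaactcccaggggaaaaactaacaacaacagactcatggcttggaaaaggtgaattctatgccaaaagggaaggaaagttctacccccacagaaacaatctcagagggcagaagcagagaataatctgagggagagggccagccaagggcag
Pvalb: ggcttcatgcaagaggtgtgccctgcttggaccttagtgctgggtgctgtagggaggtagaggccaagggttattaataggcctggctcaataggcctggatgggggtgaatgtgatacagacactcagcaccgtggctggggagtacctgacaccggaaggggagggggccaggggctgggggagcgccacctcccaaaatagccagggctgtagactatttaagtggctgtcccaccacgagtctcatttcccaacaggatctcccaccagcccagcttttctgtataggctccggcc
Trpv5: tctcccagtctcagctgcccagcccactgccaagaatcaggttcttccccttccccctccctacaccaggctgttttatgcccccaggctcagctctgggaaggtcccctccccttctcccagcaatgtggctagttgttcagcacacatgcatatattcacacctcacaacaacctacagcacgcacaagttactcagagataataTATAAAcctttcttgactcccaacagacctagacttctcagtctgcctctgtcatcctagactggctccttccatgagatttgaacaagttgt

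RefSeq promoters were matched for 6 of the 8 genes, 7 promoters in all with 2 for Pvalb. Each of 2 motifs was searched on both strands. TATAAA was found in 1 of the 6 genes, Trpv5, and in 13.6% of 32851 RefSeq promoters of the same length. AAGGTCA, the site of oestrogen-related receptors, was found in 0 of the 6 genes and in 4.72% of all promoters. The Trpv5 and Umod windows held 50.7% and 47.3% G and C, the Pvalb window shown held 58.3%, and the median of all promoters was 52.7%. These matches describe letters in the windows and are not measured binding sites.

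Each library held 15518083 to 20356601 recovered reads. Values are normalized counts, the reads of a gene divided by 1 size factor of its library. The targeted gene Cxcr2 did not have fewer reads in the KO-labelled group, with 98.0, 36.8 and 56.6 normalized counts in KO-labelled libraries 1 to 3 against 15.9, 88.8 and 56.9 in wild-type libraries 1 to 3 (log2 fold change 0.43, limma adjusted p = 0.841, SE 0.64). The counts span all of Cxcr2 and no label names a deleted part, so every difference here is one between libraries labelled knockout and libraries labelled wild type. KO-labelled library 1 stood apart from the other 5. Its summed counts of fat cell, red blood cell and neutrophil markers were far above theirs. The values of KO-labelled library 1 are therefore given by name, and the group comparisons of the 8 genes are given with and without it. The kidney label was checked against thick limb markers (Umod, Slc12a1, Cldn16, Cldn19) and distal convoluted tubule markers (Slc12a3, Pvalb, Trpm6). All were read in every library. Pvalb was lowest, at 2 reads in KO-labelled library 3 and in wild-type library 3. Cldn16 had 75 reads and Slc12a1 had 641 reads in KO-labelled library 3. Umod, Pvalb and Trpm6 are themselves among the 8 genes.

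None of the 8 genes passed limma's threshold over all genes tested (adjusted p under 0.05), which 1 gene of 21721 did (0.0046%). At an unadjusted p under 0.05, 1 of the 8 passed, Trpv5, higher, against 10.1% of all genes, 3.94% higher and 6.14% lower. edgeR's quasi-likelihood test on recovered reads called 0 of the 8 and 0.00628% of 15915 genes. DESeq2 on the same reads called 1 of the 8, Trpv5, higher, against 1.95% of 16222 genes, 0.647% called higher. Trpv5 was also the only one of the 8 whose groups did not overlap, which held for 17.7% of all genes, 8.27% with the KO-labelled libraries higher and 9.43% with them lower. Of the 8 log2 fold changes, 6 were above 0 and 2 below, with a median of 0.21 against -0.0010 over all genes tested, and it was -0.17 once KO-labelled library 1 was left out. On recovered reads edgeR gave larger log2 fold changes for Casr (0.46), Bsnd (0.29), Trpm6 (1.23), Pvalb and Calb1 and a smaller one for Kcnj1 (-0.22). It called none of them. As these are whole-kidney libraries, fewer cells of a segment and less RNA per cell cannot be told apart.

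**Figure D1:**
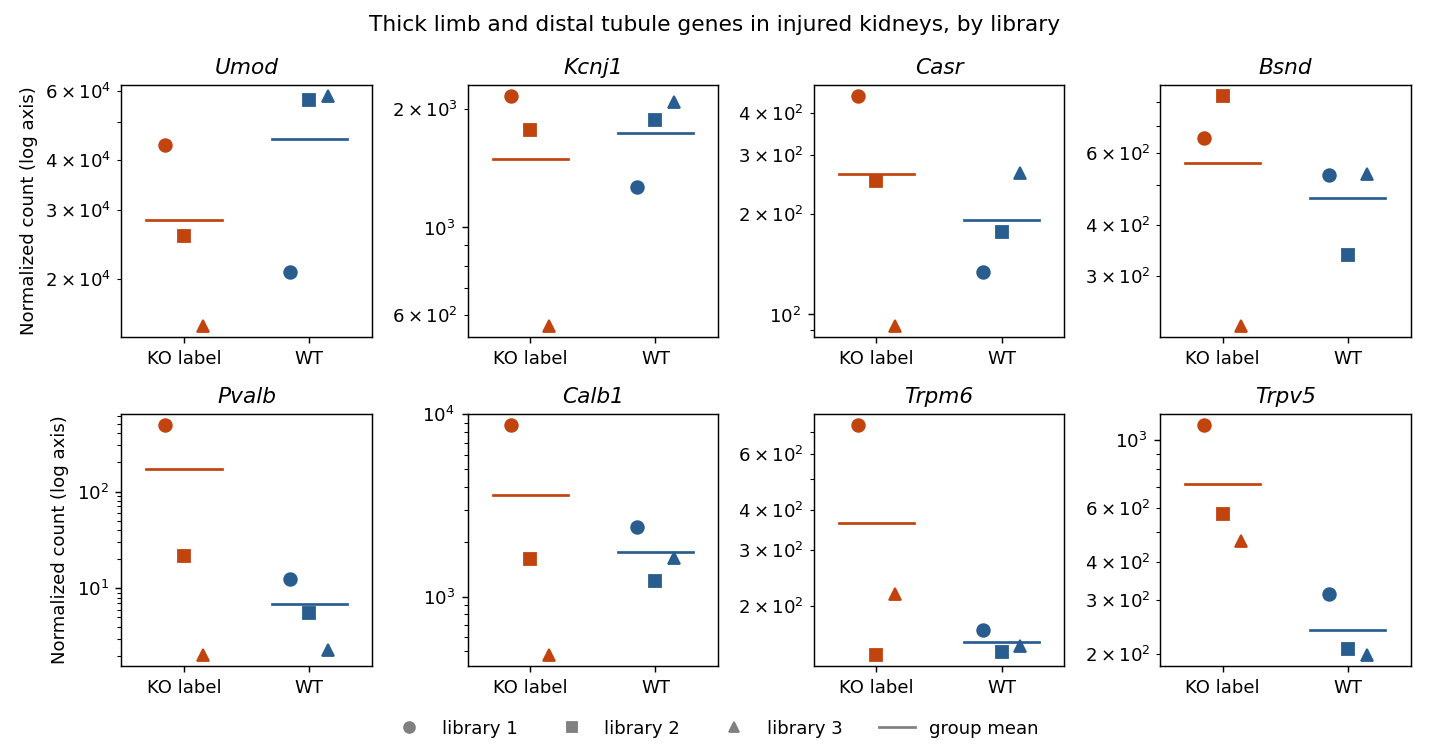
Normalized counts of the 8 genes (log scale) in each of the 6 libraries, 1 panel per gene, with KO-labelled libraries left of wild-type libraries and a line at each group's mean. The groups are separate only for Trpv5 (468 to 1115 in KO-labelled libraries, 199 to 313 in wild type), and the single high Pvalb value is 485 in KO-labelled library 1.

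All 4 thick limb genes overlapped between the groups, and their differences were within the spread between libraries. Umod encodes uromodulin, the main protein of normal urine, and lies on chromosome 7 from 119462711 to 119479282 in mm10 (ENSMUSG00000030963). Umod had 43839, 25724 and 15277 normalized counts in KO-labelled libraries 1 to 3 and 20830, 56794 and 58056 in wild-type libraries 1 to 3. The groups overlapped, because wild-type library 1 lay below 2 of the KO-labelled libraries. Its means were 28280 ± 14451 in KO-labelled libraries and 45227 ± 21137 in wild type (SD, n = 3 each), a log2 fold change of -0.67 (SE 0.51, 95% interval -1.85 to 0.52, limma adjusted p = 0.681). Leaving out wild-type library 1 gave Umod a log2 fold change of -1.15, leaving out KO-labelled library 3 one of -0.29 and leaving out KO-labelled library 1 one of -1.05. In exons, Umod overlaps the antisense gene Gm44588 over 539 bases. Gm44588 is not among the genes with deposited values. The use of strand in counting is not given in the sources used here, so reads of the pair cannot be told apart there.

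Kcnj1 encodes ROMK, the potassium channel of the luminal membrane, and lies on chromosome 9 from 32372493 to 32399197. Kcnj1 had 2155, 1768 and 563 normalized counts in KO-labelled libraries 1 to 3 and 1266, 1874 and 2091 in wild-type libraries 1 to 3. KO-labelled library 3 was the lowest of the 6 and library 1 the highest, so the groups overlapped throughout. The log2 fold change was -0.40 (SE 0.50, 95% interval -1.59 to 0.78, limma adjusted p = 0.809), with means of 1495 ± 830 in KO-labelled libraries and 1744 ± 427 in wild type (SD, n = 3 each). Its sign turned without KO-labelled library 3 (0.19), and it was -0.77 without library 1.

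Casr, the receptor by which the thick limb and other segments read extracellular calcium, lies on chromosome 16 from 36493696 to 36562141. Casr had 448, 250 and 92.6 normalized counts in KO-labelled libraries 1 to 3 and 134, 176 and 264 in wild-type libraries 1 to 3. Both the highest and the lowest library were labelled knockout. The means were 263 ± 178 in KO-labelled libraries and 191 ± 66.4 in wild type (SD, n = 3 each), a log2 fold change of 0.25 (SE 0.55, 95% interval -1.03 to 1.52, limma adjusted p = 0.903) that was -0.27 without KO-labelled library 1.

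Bsnd encodes barttin, a chloride channel subunit, and lies on chromosome 4 from 106483456 to 106492283. Bsnd had 654, 827 and 226 normalized counts in KO-labelled libraries 1 to 3 and 530, 338 and 532 in wild-type libraries 1 to 3. Wild type lay inside the range of the KO-labelled libraries. The means were 569 ± 309 in KO-labelled libraries and 467 ± 112 in wild type (SD, n = 3 each), a log2 fold change of 0.12 (SE 0.47, 95% interval -0.98 to 1.23, limma adjusted p = 0.950). It was -0.077 without KO-labelled library 1, -0.25 without KO-labelled library 2 and -0.097 without wild-type library 2.

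Pvalb and Trpm6, both of the distal convoluted tubule, each had a single high library. Pvalb encodes parvalbumin, a calcium-binding protein of the early distal convoluted tubule that fast skeletal muscle and some neurons also make, and lies on chromosome 15 from 78191114 to 78206400. Pvalb had 485, 21.3 and 2.06 normalized counts in KO-labelled libraries 1 to 3 and 12.5, 5.55 and 2.28 in wild-type libraries 1 to 3. Only KO-labelled library 1 was high, 22.7-fold above the next library, while KO-labelled library 3 was the lowest, at 2 reads as in wild-type library 3. These values rest on 435, 22 and 2 reads in KO-labelled libraries and 15, 6 and 2 in wild type. The exact Poisson 95% interval of KO-labelled library 1 was 440 to 532 normalized counts and that of library 2 was 13.3 to 32.2, which overlaps the 7.02 to 20.7 of wild-type library 1. Such intervals cover counting error only. Between the groups the log2 difference was 2.28 (SE 1.72, 95% interval -1.79 to 6.34, limma adjusted p = 0.679), against 0.32 without KO-labelled library 1. It was 4.56 with edgeR (adjusted p = 0.400) and 4.63 with DESeq2 (adjusted p = 0.175).

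Skeletal muscle markers were highest in wild-type library 1, and nerve markers in KO-labelled library 1, followed by KO-labelled library 2. The 7 skeletal muscle markers with a row, of 12 listed, summed to 54.6, 44.5 and 23.7 normalized counts in KO-labelled libraries 1 to 3 and 93.6, 35.2 and 47.8 in wild-type libraries 1 to 3. The highest of them, Tnni2, a fast-muscle troponin, stood at 14.5 in KO-labelled library 1 and 49.3 in wild-type library 1. Of the other 6, Tnnt3, also a fast-muscle troponin, was highest in KO-labelled library 1 (13.4, and at most 1.67 elsewhere), as was the muscle oxygen carrier Mb (5.57), while actin of skeletal muscle, Acta1, was at 2.23 there and at most 7.96 elsewhere. The 12 nerve markers summed to 131, 97.8 and 71.0 in KO-labelled libraries 1 to 3 and 70.2, 64.8 and 59.2 in wild-type libraries 1 to 3. In KO-labelled library 1, Syt1, Dbh and Chga of that list were at 0 and Nefm, a neurofilament, was at 79.1. Their part in the Pvalb value was not tested.

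Trpm6 is the magnesium channel of the luminal membrane, on chromosome 19 from 18749983 to 18892510. Trpm6 had 735, 141 and 218 normalized counts in KO-labelled libraries 1 to 3 and 169, 144 and 150 in wild-type libraries 1 to 3. KO-labelled library 1 was 3.37-fold above the next library and library 2 was the lowest of all, so the groups overlapped. The wild-type libraries had a coefficient of variation of 8.29%, the smallest of the 8 genes there. The means were 365 ± 323 in KO-labelled libraries and 154 ± 12.8 in wild type (SD, n = 3 each), a log2 fold change of 0.87 (SE 0.55, 95% interval -0.39 to 2.14, limma adjusted p = 0.611) that was 0.19 without KO-labelled library 1. On recovered reads edgeR gave 1.23 (adjusted p = 0.454) and DESeq2 1.24 (adjusted p = 0.259).

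Of the calcium genes of the late distal convoluted and connecting tubule, Trpv5 was higher in each of the 3 KO-labelled libraries than in any wild-type library, and Calb1 was not. Trpv5, the calcium channel of the luminal membrane, lies on chromosome 6 from 41652173 to 41680769. Trpv5 had 1115, 574 and 468 normalized counts in KO-labelled libraries 1 to 3 and 313, 208 and 199 in wild-type libraries 1 to 3. The lowest KO-labelled library was above the highest wild-type library. The means were 719 ± 347 in KO-labelled libraries and 240 ± 63.1 in wild type (SD, n = 3 each), a 3.00-fold ratio. The log2 fold change was 1.51 (SE 0.34, 95% interval 0.74 to 2.27) and did not pass over all genes (limma adjusted p = 0.373, edgeR adjusted p = 0.359), while DESeq2 gave 1.58 (adjusted p = 0.00572). It was 1.14 without KO-labelled library 1 (limma adjusted p = 0.175) and 1.14 to 1.76 when any 1 library was left out.

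Trpv5 shares 268 bases at 95.5% identity with its neighbour Trpv6, the other calcium channel of this family, so reads from that stretch could be counted for either. Trpv6 had 180, 136 and 236 normalized counts in KO-labelled libraries 1 to 3 and 167, 99.0 and 93.3 in wild-type libraries 1 to 3. The 2 genes summed, a check chosen after the values were seen, gave 1295, 710 and 704 in KO-labelled libraries against 480, 307 and 292 in wild type. The sums did not overlap either, with a log2 fold change of 1.30 (limma adjusted p = 0.373, SE 0.29). Apart from Trpv5, and Umod with its antisense gene, none of the other 6 genes shared a stretch of 100 bases at 95% identity with another gene.

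Calb1 encodes calbindin-D28k, which carries calcium through the cell, and lies on chromosome 4 from 15881264 to 15908064. Calb1 had 8713, 1616 and 481 normalized counts in KO-labelled libraries 1 to 3 and 2399, 1214 and 1622 in wild-type libraries 1 to 3. The KO-labelled libraries held both the highest value, 3.63-fold above the next library, and the lowest. The means were 3603 ± 4462 in KO-labelled libraries and 1745 ± 602 in wild type (SD, n = 3 each), a log2 fold change of 0.17 (SE 1.00, 95% interval -2.24 to 2.58, limma adjusted p = 0.964). It was -0.93 without KO-labelled library 1 and 1.16 without library 3, and -0.060 without wild-type library 2. On recovered reads edgeR gave 1.04 (adjusted p = 0.651) and DESeq2 1.05 (adjusted p = 0.762).

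**Figure D2:**
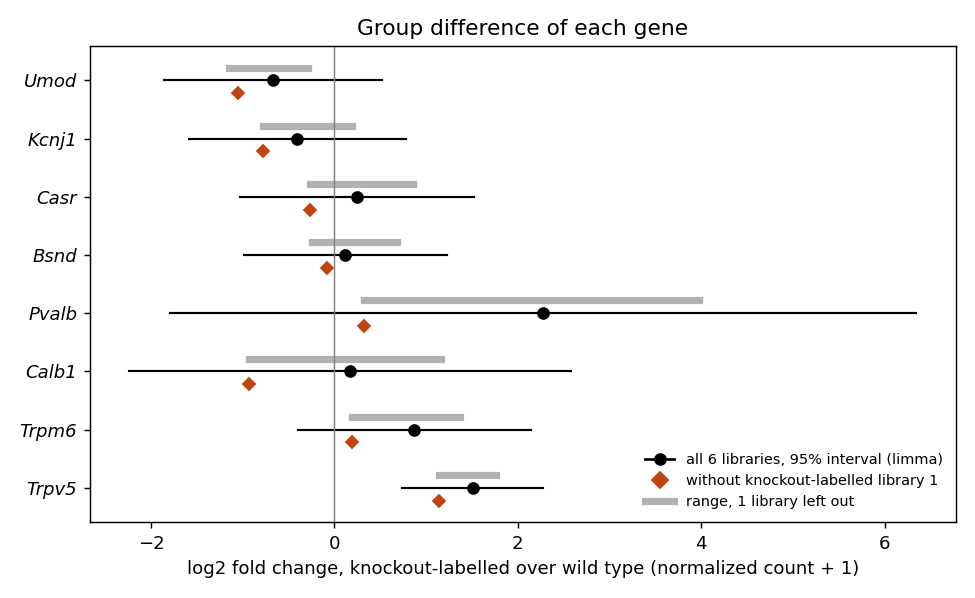
Log2 fold change, KO-labelled over wild type, of each of the 8 genes (black points with the 95% interval from limma), with its value without KO-labelled library 1 (diamonds) and its range when any 1 library is left out (grey bars). The interval lies above 0 only for Trpv5 (0.74 to 2.27), and Casr, Bsnd and Calb1 change sign without library 1.

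The KO-labelled libraries were unlike one another in these genes. KO-labelled library 1 was the highest of the 6 libraries for Kcnj1, Casr, Pvalb, Trpm6, Calb1 and Trpv5, 6 of the 8, as it was for 28.4% of all genes. It exceeded every wild-type library in 7 of the 8 genes, Umod being the exception, against 3 for library 2 and 2 for library 3. Over the 21721 genes tested, 7633, 6257 and 6446 did so in KO-labelled libraries 1 to 3. KO-labelled library 3 was the lowest of the 6 for Umod, Kcnj1, Casr, Bsnd, Pvalb and Calb1, also 6 of the 8, as it was for 18.2% of all genes. The median of the 8 genes relative to the wild-type mean was 1.76, 0.25 and -1.06 (log2) in KO-labelled libraries 1 to 3, against 0.17, -0.079 and 0.092 in wild-type libraries 1 to 3. The SD of log2 values among KO-labelled libraries ran from 0.65 for Trpv5 to 3.68 for Pvalb, with a median of 0.47 over all genes. Among wild-type libraries it ran from 0.12 for Trpm6 to 1.02 for Pvalb, with a median of 0.30 over all genes.

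**Figure D3:**
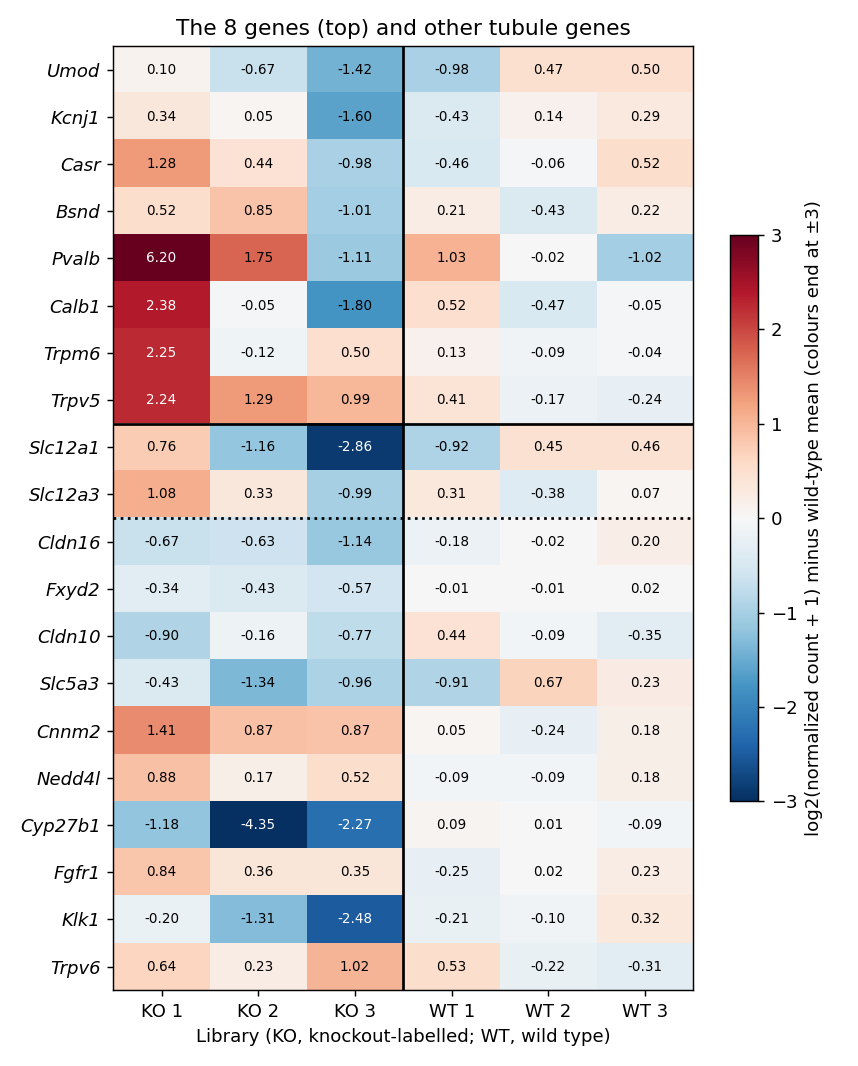
Log2 difference of each library from the wild-type mean for the 8 genes and, below them, for other tubule genes, with KO-labelled libraries left of wild-type libraries. The colour of KO-labelled library 1 is toward higher values in most rows of the 8 (6.20 for Pvalb, 2.38 for Calb1) and that of library 3 toward lower values (-1.80 for Calb1, -1.60 for Kcnj1).

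Levels were compared between genes as normalized counts per kilobase of the gene length given with the deposited values. In labelled knockout the means were 10235 for Umod, 744 for Calb1, 449 for Kcnj1, 222 for Trpv5, 206 for Bsnd, 163 for Pvalb, 56.1 for Trpm6 and 55.8 for Casr. Of these neighbours only Umod and Calb1 had ranges that did not overlap. In wild type the means per kilobase were 16369 for Umod, 523 for Kcnj1, 360 for Calb1, 169 for Bsnd, 74.0 for Trpv5, 40.5 for Casr, 23.7 for Trpm6 and 6.52 for Pvalb. There only Kcnj1 and Calb1 overlapped, and all other neighbours kept their order in each of the 3 libraries. Umod was the highest of the 8 in every library and took 0.227%, 0.152% and 0.0828% of all reads in KO-labelled libraries 1 to 3 and 0.122%, 0.344% and 0.329% in wild-type libraries 1 to 3. The ratio of the highest to the lowest of the 8 per kilobase was 167 in KO-labelled library 1, where Casr was lowest, and 9614 in wild-type library 3, where Pvalb was lowest. The deposited length of Trpm6 is 6508 bases against 7719 exon bases in GENCODE M21, and the lengths of the other 7 were equal in both.

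Each gene was divided by a salt cotransporter in the same library. This was Slc12a1 for Umod, Kcnj1, Casr and Bsnd, and Slc12a3 for Pvalb, Trpm6, Calb1 and Trpv5. Slc12a3 is of the distal convoluted tubule, while Trpv5 and Calb1 belong to its late part and to the connecting tubule. The ratios of Trpv5 and Calb1 are thus not taken within a single segment. The other ratios need not be either, since whole-kidney libraries do not show which segment a read came from. The tests use log2(normalized count + 1) of the gene and of its cotransporter, so that the size factor enters through the added 1. This bears most on the low counts of Pvalb, whose difference of 2.14 was 1.67 with a pseudocount of 10 (exact permutation p = 0.1). Slc12a1, the cotransporter of the thick limb and the target of loop diuretics, had 8146, 2151 and 660 normalized counts in KO-labelled libraries 1 to 3 and 2541, 6569 and 6622 in wild-type libraries 1 to 3. The groups overlapped (log2 fold change -1.09, limma adjusted p = 0.716, SE 0.92, and -2.01 without KO-labelled library 1). Slc12a3, the thiazide-sensitive cotransporter of the distal convoluted tubule, had 24142, 14312 and 5753 in KO-labelled libraries 1 to 3 and 14127, 8763 and 11965 in wild-type libraries 1 to 3, with a log2 fold change of 0.14 (limma adjusted p = 0.943, SE 0.49) that was -0.33 without KO-labelled library 1. In both, KO-labelled library 1 was the highest of the 6 and library 3 the lowest.

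Relative to these genes, Trpv5 and Casr were higher in all 3 KO-labelled libraries than in any wild-type library, and the other 6 overlapped. Trpv5 stood at 4.62%, 4.01% and 8.14% of Slc12a3 in KO-labelled libraries 1 to 3 and 2.21%, 2.38% and 1.66% in wild-type libraries 1 to 3. The mean log2 ratio was 1.37 higher in KO-labelled libraries, with a two-sided exact permutation p of 0.1, the smallest that 3 against 3 allows, and 0.4 after adjustment over the 8 ratios. Among all genes set against Slc12a3 in this way, 1.56% did not overlap in the higher direction. Casr stood at 5.50%, 11.6% and 14.0% of Slc12a1 in KO-labelled libraries 1 to 3 and 5.26%, 2.68% and 3.99% in wild-type libraries 1 to 3. Its mean log2 ratio was 1.33 higher (exact permutation p = 0.1, adjusted p = 0.4), and 4.14% of all genes did not overlap in the higher direction against Slc12a1. The Casr groups are separated by 5.50% in KO-labelled library 1 against 5.26% in wild-type library 1, and with a pseudocount of 10 the log2 difference was 1.33 (exact permutation p = 0.2). The log2 difference of Casr was 0.48 (exact permutation p = 0.3) against the median of the thick limb list in place of Slc12a1, where that of Trpv5 was 1.29 (exact permutation p = 0.1) against the distal convoluted list.

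Umod was 538%, 1196% and 2316% of Slc12a1 in KO-labelled libraries 1 to 3 and 820%, 865% and 877% in wild-type libraries 1 to 3. The wild-type libraries lay close together, although Umod itself varied among them, and the KO-labelled libraries lay on either side of them. The log2 difference was 0.42 (exact permutation p = 0.7). Calb1 was 36.1%, 11.3% and 8.35% of Slc12a3 in KO-labelled libraries 1 to 3 and 17.0%, 13.9% and 13.6% in wild-type libraries 1 to 3, a log2 difference of 0.032 (exact permutation p = 1). The log2 differences of Kcnj1 (0.68), Bsnd (1.21), Trpm6 (0.73) and Pvalb (2.14) were above 0, with exact permutation p of 0.3 or 0.4. With 1 library left out they ran from 0.39 to 1.24 for Kcnj1, 0.76 to 1.93 for Bsnd, 0.36 to 1.32 for Trpm6 and 0.65 to 3.27 for Pvalb, whose lowest value was the one without KO-labelled library 1.

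**Figure D4:**
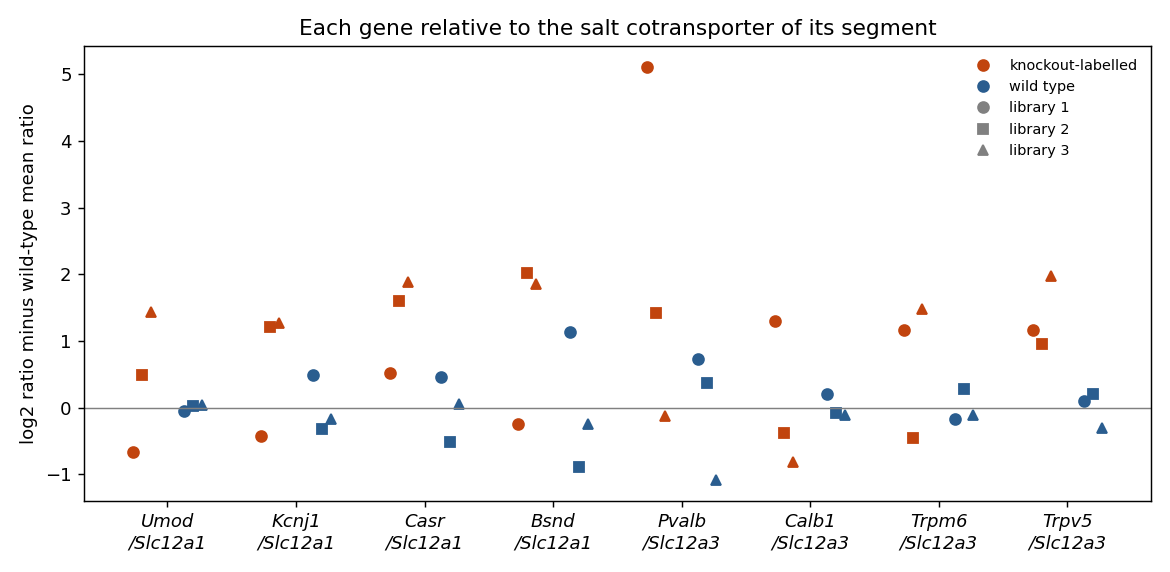
Log2 ratio of each of the 8 genes to Slc12a1 (thick limb genes) or Slc12a3 (the others) in each library. The wild-type mean of that ratio is subtracted, and KO-labelled libraries are left of wild-type libraries. Trpv5 and Casr have no overlap between groups, and the wild-type points of Umod lie close together (SD 0.051).

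The profiles of the 8 genes over the 6 libraries were compared by the root-mean-square difference of their log2 values, each centred on its own mean, so that a small value means a like profile. The pairs most alike were Kcnj1 and Casr (0.38), Umod and Kcnj1 (0.40), Kcnj1 and Bsnd (0.48) and Casr and Bsnd (0.48), all of the thick limb. The next was Trpm6 with Trpv5 (0.54). The remaining thick limb pairs were Umod and Casr (0.60) and Umod and Bsnd (0.82). Pairs across segments, Casr with Trpm6 (0.76) and with Calb1 (0.77), were more alike than Umod and Bsnd. Calb1 and Trpv5 were at 1.09. Pvalb was at 1.48 or more from each of the other 7. These values describe 6 libraries that include the 2 groups, and library 1 enters all of them.

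The nearest genes were sought among 12144 with a mean of at least 50 normalized counts. Genes with a symbol of Gm and a number, or one ending in Rik, were left out of these. Nearest in profile were Car15 (0.15) and Irx2 (0.24) to Umod, and Prkar1b (0.18) and Shd (0.20) to Kcnj1. Hspa1b (0.19) and Tox3 (0.20) were nearest to Casr, and Hlf (0.13) and Aqp6 (0.17) to Bsnd. Irx2 is a transcription factor gene, Hspa1b encodes an inducible heat shock protein and Aqp6 is a water channel of intercalated cells. The nearest to Trpm6 was Acly (0.11), the enzyme that makes cytosolic acetyl-CoA for fat synthesis, with 14695, 3098 and 4623 normalized counts in KO-labelled libraries 1 to 3 and 3207, 2528 and 2957 in wild-type libraries 1 to 3. Zbtb21 (0.15) came second. Nearest to Pvalb were the potassium channel Kcnk3 (0.34), with 1363 normalized counts in KO-labelled library 1 and at most 62.9 in any other library, and Mrap (0.41), the partner of the ACTH receptor, with 731 there and at most 27.1 elsewhere. Calb1 was nearest to Htra3 (0.23) and Car14 (0.24), and Trpv5 to Lyplal1 (0.25) and Sectm1b (0.25).

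Other genes of thick limb transport, 22 that were all tested, had a median log2 fold change of -0.27 (-0.48 without KO-labelled library 1), with 6 above 0 and 16 below. None passed limma over all genes, edgeR or DESeq2, and 3 had an unadjusted p under 0.05, all lower, against 6.14% of all genes lower at that p. Cldn16, which forms the calcium and magnesium pores between thick limb cells, had 107, 110 and 77.2 normalized counts in KO-labelled libraries 1 to 3 and 151, 168 and 197 in wild-type libraries 1 to 3. Each KO-labelled library was below each wild-type library (log2 fold change -0.81, limma adjusted p = 0.423, SE 0.27, DESeq2 adjusted p = 0.142). Fxyd2, a small subunit of the sodium pump that is also listed for the distal convoluted tubule, had 25053, 23604 and 21451 normalized counts in KO-labelled libraries 1 to 3 and 31595, 31557 and 32273 in wild-type libraries 1 to 3. These did not overlap either (-0.45, limma adjusted p = 0.437, SE 0.16). Of the 22 genes, 2 did not overlap with the KO-labelled libraries lower and 0 with them higher, against 9.43% and 8.27% of all genes. Cldn10, a sodium pore of the junction, had a log2 fold change of -0.61 (limma adjusted p = 0.481) and Slc5a3, an inositol transporter, one of -0.91 (limma adjusted p = 0.518). Unlike Casr and Kcnj1, Cldn16 and Fxyd2 were lower also in KO-labelled library 1, and their log2 fold changes without it were -0.88 and -0.50.

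Salt and magnesium genes of the distal convoluted tubule, 23 other than the 8, had a median log2 fold change of 0.14, with 16 above 0 and 7 below, and it was -0.16 once KO-labelled library 1 was left out. None passed limma or edgeR, 5 had an unadjusted p under 0.05 (4 higher, 1 lower), against 3.94% of all genes higher and 6.14% lower, while 1 passed with DESeq2, in the higher direction, as 0.647% of all genes did. That gene was Cnnm2, which is needed for magnesium transport in this segment, with 1105, 759 and 758 normalized counts in KO-labelled libraries 1 to 3 and 431, 353 and 472 in wild-type libraries 1 to 3. The groups were well apart, with a log2 fold change of 1.05 (limma adjusted p = 0.368, SE 0.21, DESeq2 adjusted p = 0.00762) and 0.87 without KO-labelled library 1. Nedd4l, a ubiquitin ligase that limits sodium transport, had a log2 fold change of 0.52 (limma adjusted p = 0.456). Egf, the growth factor of the distal convoluted tubule that is known to stimulate Trpm6, was looked at after its values were seen. It had 14554, 609 and 258 normalized counts in KO-labelled libraries 1 to 3 and 417, 464 and 604 in wild-type libraries 1 to 3, so only library 1 was high.

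Genes that regulate distal calcium uptake, 14 in all, had 7 log2 fold changes above 0 and 7 below, with a median of -0.00029. None passed limma or edgeR, 3 had an unadjusted p under 0.05 (1 higher, 2 lower; 3.94% and 6.14% of all genes), while 1 passed with DESeq2, in the lower direction, against 1.3% of all genes lower there. That was Cyp27b1, the enzyme that makes active vitamin D, with 296, 31.9 and 139 normalized counts in KO-labelled libraries 1 to 3 and 715, 675 and 631 in wild-type libraries 1 to 3. All 3 KO-labelled libraries were below all wild-type libraries, while Trpv5 was above in all 3 (Cyp27b1 log2 fold change -2.60, limma adjusted p = 0.391, SE 0.73, DESeq2 adjusted p = 0.0196). Klk1, tissue kallikrein of the connecting tubule, had 30789, 14220 and 6304 in KO-labelled libraries 1 to 3 and 30405, 32838 and 43976 in wild-type libraries 1 to 3. The groups overlapped through KO-labelled library 1, and the log2 fold change was -1.33 (limma adjusted p = 0.471, SE 0.53). Fgfr1, a receptor for FGF23, had one of 0.52 (limma adjusted p = 0.452) and Trpv6 one of 0.63 (limma adjusted p = 0.554). Kl, the co-receptor for FGF23, stood at 10983, 4719 and 2991 in KO-labelled libraries 1 to 3 and 3608, 2358 and 3398 in wild-type libraries 1 to 3, and was highest in KO-labelled library 1 as Trpv5 was. Kl was named after its values were seen.

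**Figure D5:**
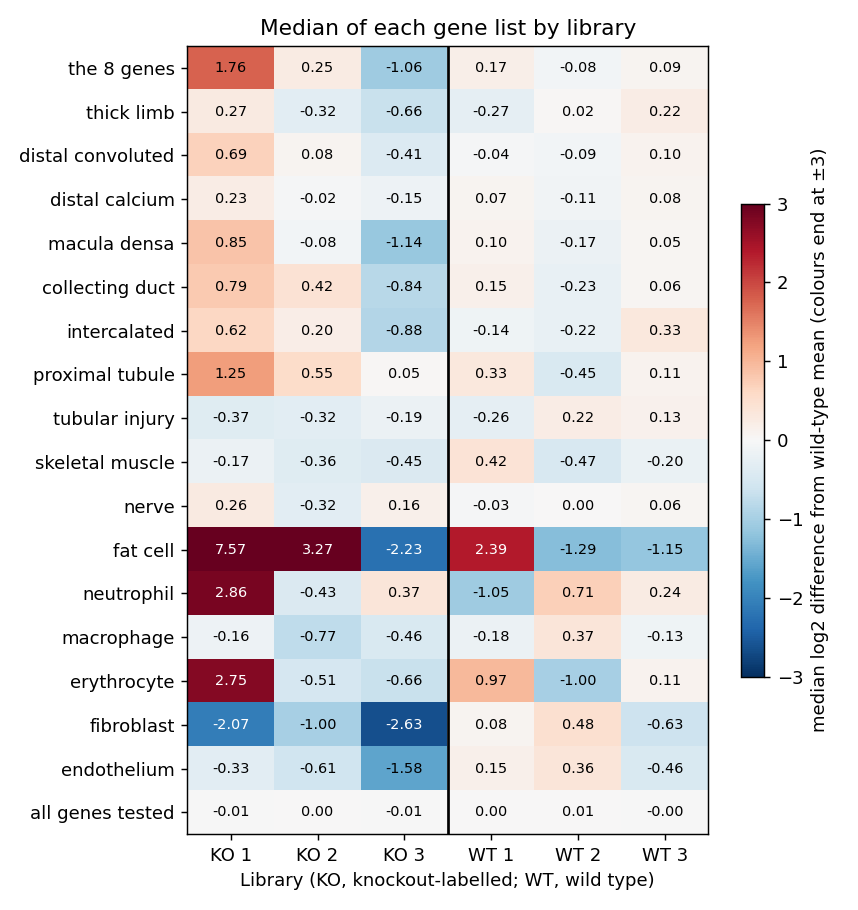
Median log2 difference from the wild-type mean over each gene list in each library, with KO-labelled libraries left of wild-type libraries. For the 8 genes the KO-labelled medians spread from 1.76 to -1.06, and for the thick limb list from 0.27 to -0.66, while the wild-type medians lie between -0.27 and 0.22.

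Markers of neighbouring segments and of other cells were measured beside these genes. Collecting duct markers stood at 0.79, 0.42 and -0.84 (median log2 difference from the wild-type mean) in KO-labelled libraries 1 to 3, and intercalated cell markers at 0.62, 0.20 and -0.88, the same order of libraries as the median of the 8 genes. Wild-type libraries lay between -0.23 and 0.33 for both. The KO-labelled libraries had this order also in the pathway lists and in the macula densa, proximal tubule, fat cell, erythrocyte, skeletal muscle and endothelial lists. They did not in the injury, nerve, neutrophil, macrophage and fibroblast lists. Proximal tubule markers stood at 1.25, 0.55 and 0.046 in KO-labelled libraries 1 to 3, and at 0.33, -0.45 and 0.11 in wild-type libraries 1 to 3. The most abundant gene of each of these lists is given for scale. Aqp2, the vasopressin-regulated water channel of the collecting duct, had 13446, 8087 and 937 normalized counts in KO-labelled libraries 1 to 3 and 6153, 5076 and 8647 in wild-type libraries 1 to 3. Slc4a9, a bicarbonate transporter of intercalated cells, had 6302, 2157 and 1706 in KO-labelled libraries 1 to 3 and 940, 819 and 1125 in wild-type libraries 1 to 3. Like Trpv5 it was higher in all 3 KO-labelled libraries and passed with DESeq2 only (log2 fold change 1.58, limma adjusted p = 0.391, DESeq2 adjusted p = 0.00891). The groups overlapped for Aqp2 (log2 fold change -0.47, limma adjusted p = 0.894), for the macula densa gene Robo2 (0.24, limma adjusted p = 0.835), for Kap of the proximal tubule (-0.79, limma adjusted p = 0.529) and for the injury gene Spp1 (-0.52, limma adjusted p = 0.804). Without KO-labelled library 1 these log2 fold changes were -1.23 for Aqp2, -0.071 for Robo2, -0.36 for Kap and 0.24 for Spp1, and that of Slc4a9 was 1.01. The 14 tubular injury markers had a median log2 fold change of -0.41, with 11 below 0, and stood at -0.37, -0.32 and -0.19 in KO-labelled libraries 1 to 3 against -0.26, 0.22 and 0.13 in wild-type libraries 1 to 3. Lcn2 (NGAL) and Clu of that list were lower in all 3 KO-labelled libraries than in any wild-type library (-1.46, DESeq2 adjusted p = 0.0208, and -0.89, DESeq2 adjusted p = 0.453), and limma called neither. Havcr1 (KIM-1) spread more widely, with 1321, 22632 and 54545 normalized counts in libraries 1 to 3, against 21441, 29373 and 30696 in wild-type libraries 1 to 3. Lcn2, Clu and Havcr1 were named after their values were seen. Of the 14 injury markers, 2 did not overlap in the lower direction and 0 in the higher, against 9.43% and 8.27% of all genes. DESeq2 called 1 of the 14 lower, against 1.3% of all genes.

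In KO-labelled library 1 the 10 fat cell markers summed to 60243 normalized counts, against 3161 and 356 in KO-labelled libraries 2 and 3 and 949 to 3480 in wild type. Of the 10, 9 were above all wild-type libraries there, and none was at 0. Fabp4, a fatty acid carrier, was the highest (20756), and Ucp1, the uncoupling protein of brown fat, was at 7234. Adipoq, Cfd and Cidea of that list were at 0 in KO-labelled library 3 and in wild-type libraries 2 and 3, and Retn in KO-labelled library 3 and wild-type library 3. The 8 erythrocyte markers summed to 13668 in KO-labelled library 1, 1071 and 798 in libraries 2 and 3 and 790 to 3002 in wild type, and the 12 neutrophil markers to 5164, 698 and 1345 in KO-labelled libraries 1 to 3 and 580 to 1929 in wild type. The highest of these were the globin gene Hbb-bs, at 6899 in KO-labelled library 1 and at most 1396 in any other library, and the calprotectin subunit S100a9, at 1438 there and at most 325 elsewhere. Of the 12 neutrophil markers, 10 were above all wild-type libraries in KO-labelled library 1. The exceptions were Csf3r (361 there, 426 in wild-type library 2) and Hdc (312 and 442), named after their values were seen. In a list of 5 genes of the adrenal cortex, chosen after values were seen, the sum was 423 in KO-labelled library 1 and at most 8.36 in any other. Fibroblast markers had a median log2 fold change of -1.71, with 9 of 9 below 0. Of these, 7 were lower at an unadjusted p under 0.05 (6.14% of all genes), 5 were called lower by DESeq2 (1.3% of all genes) and none by limma. Its highest gene, the collagen Col3a1, had a log2 fold change of -1.97 (limma adjusted p = 0.383, DESeq2 adjusted p = 0.00658). The endothelial gene Plvap had one of -1.22 (limma adjusted p = 0.391), without overlap between groups. The 10 macrophage markers had a median of -0.43, with 7 below 0, and 3 were lower and 1 higher at an unadjusted p under 0.05 (6.14% and 3.94% of all genes). Their most abundant gene, Lyz2, had a log2 fold change of -0.13 (limma adjusted p = 0.948), and Mrc1, named after its values were seen, was the 1 called lower by DESeq2 (-1.65, adjusted p = 0.0135). The part of these cells in the values of the 8 genes was not tested.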

How the data were processed

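Libraries were assigned to groups from the genotype and title that GEO records for them. Each deposited value is a signal, the count of a gene that the authors scaled by a single factor for its library. The values themselves show this, since 100% were whole multiples of 1 step within 0.001 reads, and the factors lay between 0.879 and 1.20. The submitters' processing notes name the build mm10. The sources used here do not give the aligner, counting program, strand use, annotation release or library kit. GENCODE M21 held 99.9% of the gene identifiers.

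The test was limma 3.58.1 (trend and robust options, R 4.3.3) on log2(normalized count + 1), over the 21721 genes whose mean was 1 or more, with Benjamini-Hochberg adjustment and a threshold of 0.05. The pseudocount understates the changes of low genes. Recovered reads were tested with edgeR 4.0.16 (quasi-likelihood, TMM factors) and DESeq2 1.42.0 (Wald test). Ratios were tested by two-sided exact permutation. Promoter sequences are from RefSeq. Sequence shared between genes was sought in the GENCODE M21 transcripts.

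The 8 genes and the gene lists were chosen with earlier results of these data known, so no gene list was tested. Gene p-values were adjusted over all genes tested, and the p-values of the 8 ratios over those 8. The text names all 8 genes, Slc12a1 and Slc12a3, the segment marker Cldn19 and the 4 genes of smallest limma p in each pathway list. It also names the gene of highest mean in each cell type list, and the 2 genes nearest in profile to each of the 8. One gene under this rule is left out of the text. Any further gene is stated to have been named after its values were seen. In addition, Acta1, Tnnt3, Mb, Syt1, Dbh, Chga, Ucp1, Adipoq, Cfd, Retn and Cidea were named after their values were seen, to give the defining markers of their lists.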

Additional observations from a re-analysis of the deposited data

How the results depend on the processing

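None of the 8 genes passed limma's threshold under any setting that kept limma or edgeR. With DESeq2 Trpv5 passed (log2 fold change 1.58, adjusted p = 0.00572). The count of genes called over all genes was 1, and 2 with a pseudocount of 10, 5 without the filter on low values, 4 with TMM factors, 316 with DESeq2 and 1 to 6 when 1 library was left out (6 without KO-labelled library 1, 3 without library 3). With 1 library left out, log2 fold changes turned sign for Kcnj1 (-0.77 to 0.19), Casr (-0.27 to 0.86), Bsnd (-0.25 to 0.69) and Calb1 (-0.93 to 1.16), and the other 4 kept theirs. The cause was not tested. Relative to Slc12a1 or Slc12a3, the differences turned for Umod (-0.089 to 0.96) and Calb1 (-0.60 to 0.46) when 1 library was left out, and against the list median for Umod (-0.43), Kcnj1 (-0.17) and Calb1 (-0.048). The thick limb list median was -0.48 to -0.18 with 1 library left out. A median was counted as moved when it shifted by more than the SD of its per-library medians within groups. With 1 library left out this held for the distal calcium list (-0.19 to 0.31), macula densa (-0.85 to 0.39) and collecting duct (-0.55 to 0.56). It held also for injury (-0.58 to -0.17) and nerve markers (0.070 to 0.68). With a pseudocount of 10 it held for skeletal muscle (-0.15) and nerve markers (0.20). Medians not counted as moved could still change sign with 1 library left out. These were distal convoluted (-0.16 to 0.36), intercalated (-0.37 to 0.35), erythrocyte (-0.59 to 1.19) and neutrophil markers (-0.20 to 1.35). The fat cell median ran from 0.32 to 5.50.

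Whether same-numbered libraries form pairs is not given in the sources used here. The deviations of same-numbered libraries from their group means correlated by 0.067, -0.15 and 0.12 over genes. KO-labelled libraries 1 and 3 correlated best with their own number, and KO-labelled library 2 with wild-type library 1 (0.20). With 3 libraries per group these correlations cannot decide whether the numbers mark pairs. With the replicate number as a block limma called 16 genes, none of them among the 8 (Trpv5 adjusted p = 0.0865). For the ratios the smallest p of 3 pairs is 0.25.

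Depth limits Pvalb, which had 2 to 22 reads in 5 of the 6 libraries.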
